A study of Mus musculus with 24 samples.

Results

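The 10 genes described here encode enzymes that write or remove DNA methylation (Dnmt1, Dnmt3a, Dnmt3b, Tet1, Tet3), the factor that brings Dnmt1 to its substrate (Uhrf1), and the core of Polycomb repressive complex 2, PRC2 (Ezh1, Ezh2, Eed, Suz12). They were chosen by name, and every probe annotated with their symbols on the mouse bead array was taken. That gave 16 of the 25697 probes and 9 of the 10 genes, out of 16593 genes with a symbol. Tet1 had no annotated probe and was not analysed here.

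Gene expression was measured in glial progenitor cells (GPCs) made from mouse embryonic stem cells. The groups used were differentiated Dgcr8 flox/delta cells (3 arrays), undifferentiated Dgcr8 knockout cells (3), undifferentiated Dgcr8 flox/delta cells (3), and Dgcr8 knockout cells given let-7 (3), miR-125 (3) or a mock treatment (4). Dgcr8 is a part of the microprocessor, which cuts primary microRNA transcripts, and flox/delta cells already carry 1 deleted allele opposite a conditional one, so the controls share that deletion. EGF and FGF kept cells undifferentiated in N2 medium, and differentiation meant withdrawing both and giving B27 with 1% FBS. The labels list tamoxifen (1 uM for 16 h, then 100 nM for 16 h) for all knockout groups and for neither flox/delta group, so tamoxifen and the loss of Dgcr8 cannot be told apart in that comparison. Each replicate number of the microRNA and mock arrays was its own tamoxifen treatment. The origin of the other replicates is not given, so a p-value may cover technical spread only.

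DNA methylation in mammals is set by Dnmt3a and Dnmt3b and copied to the daughter strand after replication by Dnmt1. Uhrf1 recognises the hemimethylated CpG site left by replication and recruits Dnmt1 there, and the Tet enzymes oxidise methylcytosine, which leads to its removal. PRC2 methylates histone H3 through its catalytic subunit, Ezh2 or Ezh1, and needs Eed and Suz12 for activity. Ezh2 is typical of dividing progenitors and Ezh1 of cells that have stopped dividing. In neural progenitors DNA methylation is known for holding astrocyte genes silent until the gliogenic phase.

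The study gave knockout cells 2 microRNAs of different families, shown here because their seeds (bases 2 to 8, in capitals), which pair with target messages, differ. The labels do not say which family member was given, so these RefSeq entries of mouse (GRCm38.p6) stand for the families, and 9 of 10 mature let-7 names and both mature miR-125 names in that table share the family seed.
mmu-let-7a-5p: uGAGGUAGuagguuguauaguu
mmu-let-7b-5p: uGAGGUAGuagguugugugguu
mmu-miR-125a-5p: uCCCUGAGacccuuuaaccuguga
mmu-miR-125b-5p: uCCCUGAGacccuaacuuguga

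Promoter windows of 300 bases (250 before the start site and 50 from it) were found in RefSeq (GRCm38.p6) for all 10 genes, 15 windows in all. They are shown for the 4 genes with the deepest fall on differentiation, and for Ezh1, the tested gene that did not fall. Where a gene has several windows the one richest in CpG is shown. Capitals mark the letters TTTCCCGC or TTTGGCGC, known as E2F sites, and CCAAT, each sought on both strands.
Uhrf1 promoter, chr17:56304063-56304362, plus strand: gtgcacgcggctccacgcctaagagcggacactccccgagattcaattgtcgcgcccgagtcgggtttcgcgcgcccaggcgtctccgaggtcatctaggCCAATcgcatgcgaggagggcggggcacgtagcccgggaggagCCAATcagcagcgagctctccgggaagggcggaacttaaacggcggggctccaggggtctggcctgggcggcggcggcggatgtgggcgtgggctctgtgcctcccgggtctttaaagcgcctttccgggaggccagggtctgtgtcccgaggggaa
Dnmt1 promoter, chr9:20952574-20952873, minus strand: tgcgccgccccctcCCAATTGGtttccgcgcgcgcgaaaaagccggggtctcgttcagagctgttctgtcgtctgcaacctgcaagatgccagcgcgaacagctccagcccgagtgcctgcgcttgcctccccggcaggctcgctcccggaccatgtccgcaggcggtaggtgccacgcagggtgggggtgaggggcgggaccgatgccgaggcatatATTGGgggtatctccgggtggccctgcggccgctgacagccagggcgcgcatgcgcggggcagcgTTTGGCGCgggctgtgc
Ezh2 promoter, chr6:47594981-47595280, minus strand: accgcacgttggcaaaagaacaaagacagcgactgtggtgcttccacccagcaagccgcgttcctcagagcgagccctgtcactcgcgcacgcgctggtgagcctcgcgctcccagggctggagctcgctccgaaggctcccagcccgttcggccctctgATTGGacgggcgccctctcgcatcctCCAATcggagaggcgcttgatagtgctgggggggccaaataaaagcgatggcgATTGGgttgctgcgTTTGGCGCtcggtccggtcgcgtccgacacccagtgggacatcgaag
Suz12 promoter, chr11:79992856-79993155, plus strand: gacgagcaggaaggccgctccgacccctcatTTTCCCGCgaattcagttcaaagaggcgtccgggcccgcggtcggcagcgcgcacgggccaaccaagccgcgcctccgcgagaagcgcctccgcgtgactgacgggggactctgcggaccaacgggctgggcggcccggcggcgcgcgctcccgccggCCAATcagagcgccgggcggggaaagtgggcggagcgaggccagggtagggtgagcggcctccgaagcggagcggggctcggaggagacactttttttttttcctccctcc
Ezh1 promoter, chr11:101226414-101226713, minus strand: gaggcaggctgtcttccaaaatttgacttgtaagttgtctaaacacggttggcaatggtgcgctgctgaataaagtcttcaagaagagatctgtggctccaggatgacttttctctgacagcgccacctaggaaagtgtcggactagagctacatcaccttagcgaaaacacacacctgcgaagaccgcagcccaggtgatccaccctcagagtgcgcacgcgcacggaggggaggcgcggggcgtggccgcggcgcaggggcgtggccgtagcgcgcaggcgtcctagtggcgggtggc

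The E2F letters were in 3 of the 15 windows (Dnmt1, Ezh2, Suz12), against 1.56% of 32851 windows of this length in the table. CCAAT was in 8 of the 15 windows, from 6 genes, against 37.4% of all windows, and in the Dnmt1 window shown 2 CCAAT matches on opposite strands overlap each other, while no E2F match overlaps a CCAAT match. A pair of 6-letter forms of the CHR element, TTTGAA or TTCGAA, was in 4 windows, against 19.2% of all windows. The Ezh1 window held none of these letters, and neither did the windows of Dnmt3a and Tet1. Among genes that fell on differentiation, the Dnmt3b window had no E2F or CCAAT letters and the Uhrf1 windows had no E2F letters. The 5 windows shown had observed over expected CpG ratios of 0.96 (Uhrf1), 0.91 (Dnmt1), 1.00 (Ezh2), 1.09 (Suz12) and 0.88 (Ezh1), against a median of 0.38 over all windows. Those of Uhrf1 and Dnmt1 were picked as the richest in CpG, so their high ratios follow from that choice. The other Uhrf1 window had 0.47 and the other Dnmt1 windows 0.10 and 0.50. These matches describe letters and were not tested against the expression values.

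Mean raw signal lay between 298 and 474 on the 9 arrays of hybridization 1 (all flox/delta cells and the knockout cells compared with them), between 1429 and 1523 on the 2 arrays of hybridization 2 and between 756 and 868 on the 8 arrays of hybridization 3. Between 11788 and 13129 probes were above background per array. Levels are log2 normalized signal, set side by side only among arrays normalized together (hybridization 1, or hybridizations 2 and 3), and signals of different probes are not compared, since each probe binds with its own strength. The single Dgcr8 probe averaged lower in knockout than in flox/delta cells, with a log2 difference of -0.52 ± 0.13 (SE, limma adjusted p = 0.00552), and where it lies relative to the deletion is not known. Cell type markers could be checked in part: of those with a probe, 9 of 10 astrocyte, 8 of 9 oligodendrocyte and 9 of 12 neuron markers were measurable in hybridization 1. None of 6 microglial markers was. Measurable means above background on at least 3 of the 9 arrays of any group. The astrocyte marker Gfap and the oligodendrocyte marker Mag count, although above background on 0 of 3 undifferentiated flox/delta and 0 of 3 knockout arrays. These counts do not establish glial identity of the progenitors. Of 8 pluripotency markers 5 were kept (Nanog, Zfp42, Esrrb, Klf4 and Dppa5a), each above background on all 3 undifferentiated flox/delta arrays. On differentiation Esrrb (-1.72) and Klf4 (-1.5) were lower, and the other kept ones did not pass. Pou5f1, the defining factor of embryonic stem cells, was below the detection rule in hybridization 1.

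Only 7 of the 9 genes could be tested. A probe was kept when it was above background (detection p under 0.05) on at least 3 of the arrays normalized together, which left 8 member probes: 2 of Ezh2 and 1 each of Uhrf1, Dnmt1, Dnmt3b, Suz12, Eed and Ezh1. Dnmt3a, a de novo methyltransferase, had 2 probes, and neither was above background on any of the 19 arrays. The lowest Dnmt3a detection p was 0.185. The same held for both probes of Tet3, the oxidising enzyme, and for another probe each of Ezh2 and Uhrf1. An additional Dnmt3b probe was above background on 1 array and an additional Ezh1 probe on 2 arrays of each normalization set. The lack of signal from these probes is a limit of the array and gives no level for Dnmt3a or Tet3.

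Differentiation lowered 6 of the 7 tested genes. Uhrf1 and Dnmt1, the pair that copies methylation after replication, fell most, the PRC2 genes Ezh2, Suz12 and Eed and the de novo enzyme Dnmt3b fell less, and Ezh1 was called higher. The Ezh1 probe was above background on no undifferentiated flox/delta array, so it met the filter on low values only through groups where it is high, and its call is given as a description. Differentiation changed much of the transcriptome: 54.6% of 8991 genes passed by their leading probe (the kept probe with the highest mean), 27.8% higher and 26.8% lower. The median log2 difference was -0.86 over the 7 members and -0.01 over all 8991 genes. In bulk RNA, fewer cells of a type and less RNA per cell cannot be told apart.

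**Figure D1:**
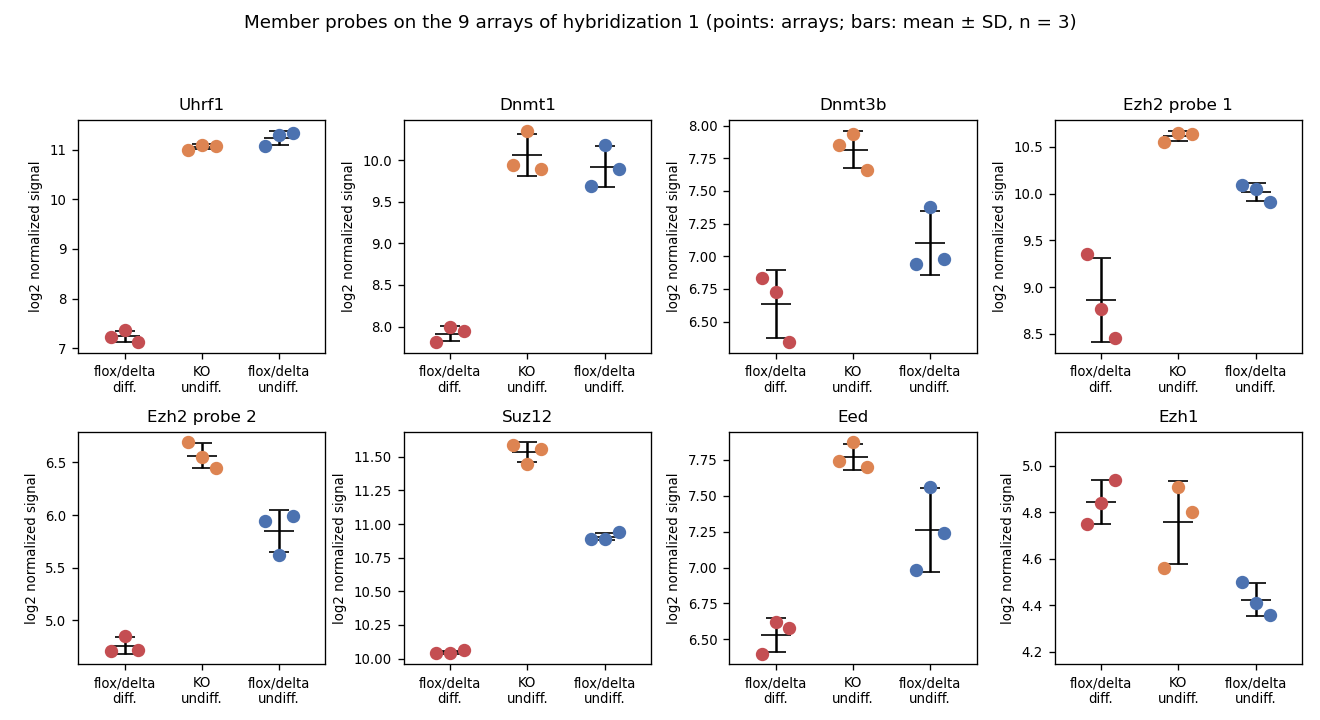
Log2 normalized signal of the 8 tested member probes on the 9 arrays of hybridization 1, in differentiated flox/delta, undifferentiated knockout and undifferentiated flox/delta cells. Points are arrays and bars are mean ± SD (n = 3), each panel with its own axis. Uhrf1 sits between 7.12 and 7.36 in differentiated cells and between 11 and 11.33 in the other groups, while Ezh1 is higher in differentiated than in undifferentiated flox/delta cells and overlaps with the knockout arrays.

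Uhrf1, the reader of hemimethylated CpG sites, had log2 signals of 7.23, 7.36 and 7.12 in differentiated flox/delta cells, against 11.08, 11.30 and 11.33 in undifferentiated flox/delta cells. The groups lay far apart, and every differentiated array was low. The log2 difference was -4.00 ± 0.10 (SE; limma adjusted p = 6.31e-11), a 16.0-fold lower signal, and 0.445% of the 8991 genes fell further.

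Dnmt1, the maintenance methyltransferase, had log2 signals of 7.81, 7.99 and 7.95 in differentiated cells, against 9.69, 10.18 and 9.89 in undifferentiated cells. Again the groups did not overlap, and the differentiated arrays lay closer together than the undifferentiated ones. Dnmt1 had a log2 difference of -2.0 ± 0.15 (limma adjusted p = 3.92e-07), a 4.01-fold lower signal, with 2.49% of genes falling further.

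Ezh2, the catalytic subunit of PRC2 in dividing cells, was read by 2 kept probes. Its leading probe had log2 signals of 9.35, 8.77 and 8.46 in differentiated cells, against 10.09, 10.05 and 9.91 in undifferentiated cells. The second probe had 4.71, 4.85 and 4.72 in differentiated cells, against 5.94, 5.62 and 5.99 in undifferentiated cells. Both probes separated the groups, and the leading probe spread most among the differentiated arrays. The log2 differences were -1.16 ± 0.18 for the leading probe and -1.09 ± 0.12 for the second probe (limma adjusted p = 0.000181 and 9.55e-06). The second probe was close to background in differentiated cells (detection p 0.0476, 0.0163 and 0.0288). Background limits the fall it can show, so the size of the fall rests on the leading probe.

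Suz12, the PRC2 scaffold, had log2 signals of 10.04, 10.04 and 10.06 in differentiated cells, against 10.89, 10.89 and 10.94 in undifferentiated cells. These were the tightest groups among the members, with a log2 difference of -0.86 ± 0.09 (limma adjusted p = 4.76e-06). Eed, the subunit that binds the methylated histone and stimulates the enzyme, had 6.40, 6.62 and 6.58 in differentiated cells, against 6.98, 7.56 and 7.24 in undifferentiated cells. The log2 difference of Eed was -0.73 ± 0.14 (limma adjusted p = 0.000864), with no overlap between the groups.

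Dnmt3b, the de novo methyltransferase of early embryos, had log2 signals of 6.83, 6.73 and 6.34 in differentiated cells, against 6.94, 7.38 and 6.98 in undifferentiated cells. The groups did not overlap, but the nearest arrays of the groups were close. Its log2 difference was -0.47 ± 0.15 (limma adjusted p = 0.0226). This call was lost without differentiated replicate 3 (-0.32, adjusted p = 0.0969), without undifferentiated flox/delta replicate 2 (-0.33, adjusted p = 0.098), with median scaling (-0.39, adjusted p = 0.0675) and without the filter on detection (-0.47, adjusted p = 0.0515).

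Ezh1, the PRC2 enzyme of resting cells, had log2 signals of 4.75, 4.84 and 4.94 in differentiated cells, against 4.50, 4.41 and 4.36 in undifferentiated cells. All 3 differentiated arrays and none of the undifferentiated arrays were above background. The fitted log2 difference was 0.42 ± 0.11 (limma adjusted p = 0.00696), and against the background level the signal was at least 1.07-fold higher. The call was lost with median scaling (0.49, adjusted p = 0.0614), with an offset of 50 (0.18, adjusted p = 0.0504) and in the authors' normalized table (0.14, adjusted p = 0.0599). The additional Ezh1 probe, which was not tested, was above background on 2 of 3 differentiated arrays and on none of the undifferentiated ones.

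Other genes of the same pathways were counted by list. Of 14 tested DNA replication genes, all 14 fell on differentiation, with a median log2 difference of -3.20. The replicative helicase gene Mcm5 (-3.93), the ribonucleotide reductase gene Rrm2 (-3.90) and the helicase gene Mcm3 (-3.67) had the largest falls. Uhrf1 lay beyond and Dnmt1 at the edge of that list, whose smallest fall was that of the sliding clamp gene Pcna (-2.0), while Ezh2, Suz12, Eed and Dnmt3b all moved less than any of its genes. How much of the members' fall goes with fewer cells in S phase was not tested.

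Among 5 tested PRC2 partners, 2 rose and 1 fell. The Tudor-domain partner Phf19 rose by 0.76 ± 0.12 log2 units and the elongin-binding partner Epop by 0.55 ± 0.16, whereas the histone-binding subunit Rbbp7 had a log2 difference of -1.05 ± 0.10 (limma adjusted p = 0.000196, 0.0124 and 4.24e-06). Mtf2, another Tudor-domain partner, did not pass (-0.26, adjusted p = 0.12).

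Among 16 tested subunits of PRC1, the Polycomb complex that ubiquitinates histone H2A, 2 rose and 4 fell. The reader subunit Cbx2 (-0.76), the MBT-domain protein L3mbtl2 (-0.70) and the Polyhomeotic subunit Phc2 (-0.65) were lower. Scmh1 (0.67) and the RING-finger subunit Pcgf2 (0.36) were called higher. Pcgf2 was above background on 3 differentiated, 1 undifferentiated flox/delta and 0 knockout arrays. It thus met the filter through the group where it is high, and its call is given as a description. With median scaling 1 PRC1 subunit was called higher in place of 2. The median log2 difference of the list was -0.12.

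Of 4 tested erasers of the Polycomb marks, the demethylases Kdm6a (0.37 ± 0.11) and Kdm6b (0.34 ± 0.13) rose and none fell. Of 11 tested partners, readers and removal factors of DNA methylation, 4 rose and 3 fell. The stress-induced genes Gadd45b (1.96 ± 0.11) and Gadd45g (1.36 ± 0.10), which have been linked to demethylation, rose most, and Uhrf2, the close relative of Uhrf1, fell (-0.74 ± 0.10). The thymine DNA glycosylase gene Tdg (-0.58) and the methyl-CpG-binding family member Mbd3 (-0.43) fell as well. Of 3 tested genes of the methionine cycle, which supplies the methyl donor, 2 fell, the largest change being that of the hydrolase gene Ahcy (-0.92).

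Genes known as targets of these systems were looked at on the same arrays. All 8 germline genes with a probe, from a list known to be silenced by DNA methylation, stayed below the detection rule. Of the Ink4 genes, known targets of Polycomb, the cell cycle inhibitor gene Cdkn2b rose by 1.99 ± 0.14 log2 units on differentiation (limma adjusted p = 1.85e-07), whereas Cdkn2a did not pass (-0.11, adjusted p = 0.501). The astrocyte filament gene Gfap, whose promoter is known to be methylated in progenitors, was above background on all 3 differentiated arrays and on 0 of 3 undifferentiated ones, at least 86.7-fold higher. Astrocyte markers moved with this comparison as a group: 7 of 9 tested rose, none fell, and their summed linear signal was 44100 to 48700 in differentiated cells, against 21800 to 23100 in undifferentiated cells. Oligodendrocyte markers had 6 of 8 higher and 1 lower, with sums of 18900 to 20800 in differentiated cells, against 12300 to 12800 in undifferentiated cells. Of 9 tested neuron markers 4 rose, among them Dcx (3.48), and none fell. Of 7 mesenchymal markers only Acta2 could be tested, and it was above background on all 3 differentiated and 0 of 3 undifferentiated flox/delta arrays, at least 4.24-fold higher. What part such changes in cell makeup have in the members' values was not tested.

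**Figure D2:**
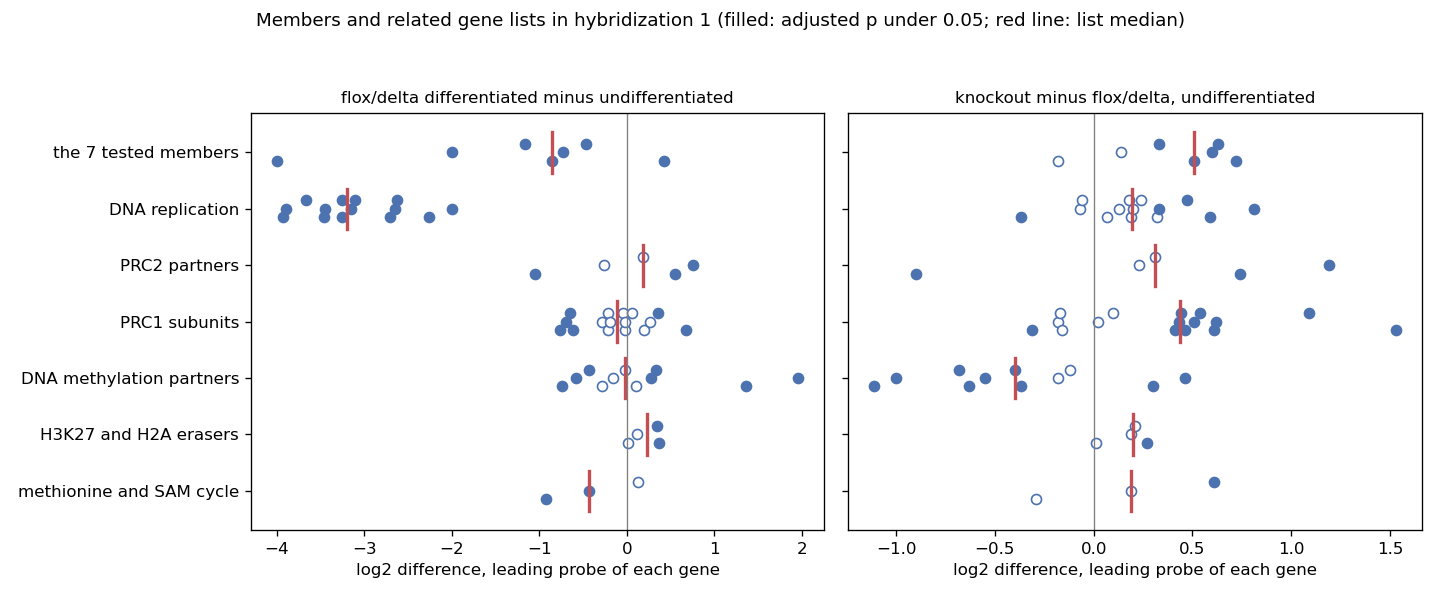
Log2 differences of the leading probe of each gene for the members and 6 related lists, on differentiation (left) and in knockout against flox/delta cells (right). Filled points passed at adjusted p under 0.05 and red lines are list medians, which on differentiation are -0.86 for the members and -3.20 for DNA replication, and in the knockout 0.51 and 0.20.

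In undifferentiated cells without Dgcr8 the members divided otherwise. Of the 7 tested genes 5 were higher in knockout than in flox/delta cells and none was lower: Dnmt3b, all of the core PRC2 genes Ezh2, Suz12 and Eed, and Ezh1. The Ezh1 probe was above background on no flox/delta array here and met the filter only through groups where it is high. Its call is therefore a description, although the count of 5 and the member median given below include it. Uhrf1 and Dnmt1, which fell most on differentiation, did not pass. In this comparison 51.5% of 8991 genes passed, 25.8% higher and 25.7% lower in the knockout, and the median log2 difference was 0.51 over the members and 0.01 over all genes. The differentiation and knockout comparisons share the 3 undifferentiated flox/delta arrays, so their values are given side by side and not set against each other.

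Suz12 had log2 signals of 11.59, 11.45 and 11.56 in knockout cells, against 10.89, 10.89 and 10.94 in flox/delta cells. The groups were well apart, with a log2 difference of 0.63 ± 0.09 (limma adjusted p = 8.24e-05), a 1.55-fold higher signal. It stayed between 0.60 and 0.67 when single arrays were left out.

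Ezh2 had 10.55, 10.65 and 10.64 in knockout cells, against 10.09, 10.05 and 9.91 in flox/delta cells, by its leading probe. Its second probe had 6.69, 6.55 and 6.45 in knockout cells, against 5.94, 5.62 and 5.99 in flox/delta cells. Neither probe's groups overlapped. The log2 differences were 0.60 ± 0.18 for the leading probe and 0.72 ± 0.12 for the second probe (limma adjusted p = 0.0162 and 0.000357). The call of the leading probe was lost without flox/delta replicate 3 (0.54, adjusted p = 0.0534).

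Eed had 7.74, 7.87 and 7.70 in knockout cells, against 6.98, 7.56 and 7.24 in flox/delta cells. The flox/delta arrays spread more, and the log2 difference was 0.51 ± 0.14 (limma adjusted p = 0.00962). Dnmt3b had 7.85, 7.94 and 7.66 in knockout cells, against 6.94, 7.38 and 6.98 in flox/delta cells. Its log2 difference of 0.72 ± 0.15 (limma adjusted p = 0.00221), a 1.65-fold higher signal, was the largest of the leading probes in this comparison, and 9.87% of all genes were higher still.

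Ezh1 had 4.56, 4.91 and 4.80 in knockout cells, against 4.50, 4.41 and 4.36 in flox/delta cells. It was above background on 2 of the 3 knockout arrays and on none of the undifferentiated flox/delta arrays, so the reservation about the filter holds here too. The fitted log2 difference was 0.33 ± 0.11 (limma adjusted p = 0.0261), with a bound of at least 1.01-fold higher against background. The call was lost with median scaling (0.22, adjusted p = 0.409), with an offset of 50 (0.14, adjusted p = 0.124), in the authors' normalized table (0.11, adjusted p = 0.142) and without knockout replicate 2 or 3 or flox/delta replicate 2 or 3 (0.25 to 0.33, adjusted p 0.0598 to 0.105).

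Dnmt1 had 9.94, 10.35 and 9.89 in knockout cells, against 9.69, 10.18 and 9.89 in flox/delta cells, and the groups overlapped. Its log2 difference was 0.14 ± 0.15 (limma adjusted p = 0.461), with a 95% interval from -0.18 to 0.47. Uhrf1 had 11, 11.09 and 11.08 in knockout cells, against 11.08, 11.30 and 11.33 in flox/delta cells. Its log2 difference was -0.18 ± 0.10 (limma adjusted p = 0.171), with a 95% interval from -0.41 to 0.05.

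The neighbouring lists showed which other Polycomb genes moved in the knockout. Of 16 tested PRC1 subunits 10 rose and 1 fell, with a median log2 difference of 0.44. The largest were the reader subunit Cbx2 (1.53 ± 0.11), the ubiquitin ligase Ring1 (1.09 ± 0.09) and the RING-finger subunit Pcgf6 (0.62 ± 0.13), and the lower one was Pcgf1 (-0.31 ± 0.11). The call of Pcgf1 was lost with median scaling. Among the PRC2 partners Mtf2 (1.19 ± 0.13) and Rbbp7 (0.74 ± 0.10) rose and Epop fell (-0.90 ± 0.16).

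Of 11 tested partners, readers and removal factors of DNA methylation, 7 were lower in the knockout and 2 were higher, with a median log2 difference of -0.40. Gadd45b was above background on 0 of 3 knockout arrays and on all 3 flox/delta arrays, at least 1.62-fold lower. Gadd45g (-1.0 ± 0.10) and the CXXC-domain gene Cxxc4 (-0.68 ± 0.11) fell as well, and the deubiquitinase gene Usp7 (0.46 ± 0.09) and Uhrf2 (0.30 ± 0.10) were the risers. Of the 14 replication genes 4 rose and 1 fell, led by the thymidylate synthase gene Tyms (0.81 ± 0.12), with the ligase gene Lig1 (-0.37 ± 0.12) as the lower one, a call lost with median scaling. Cdkn2b was lower by 0.51 log2 units (adjusted p = 0.00819). Glial markers moved too: 5 of 9 astrocyte markers fell and 1 rose, with sums of 10400 to 10900 in knockout cells, against 21800 to 23100 in flox/delta cells, and 7 of 8 oligodendrocyte markers fell. What part these have in the members' values was not tested.

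The contrast of differentiated flox/delta cells with undifferentiated knockout cells gives the outer groups of hybridization 1. For Dnmt3b, Ezh2, Suz12, Eed and Dnmt1 the order of means was knockout, then undifferentiated flox/delta, then differentiated flox/delta, although for Dnmt1 the upper pair of groups did not differ beyond its spread. For Uhrf1 the flox/delta mean stood above the knockout mean with the same reservation. Between the outer groups 6 of 7 genes were lower in differentiated flox/delta cells (of 8991 genes 68.8% passed, 33.8% higher and 35% lower), with a median log2 difference of -1.49. The log2 differences were -3.82 for Uhrf1, -2.15 for Dnmt1, -1.75 for Ezh2, -1.49 for Suz12, -1.24 for Eed and -1.19 for Dnmt3b, and Ezh1 did not pass (0.09, limma adjusted p = 0.508).

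**Figure D3:**
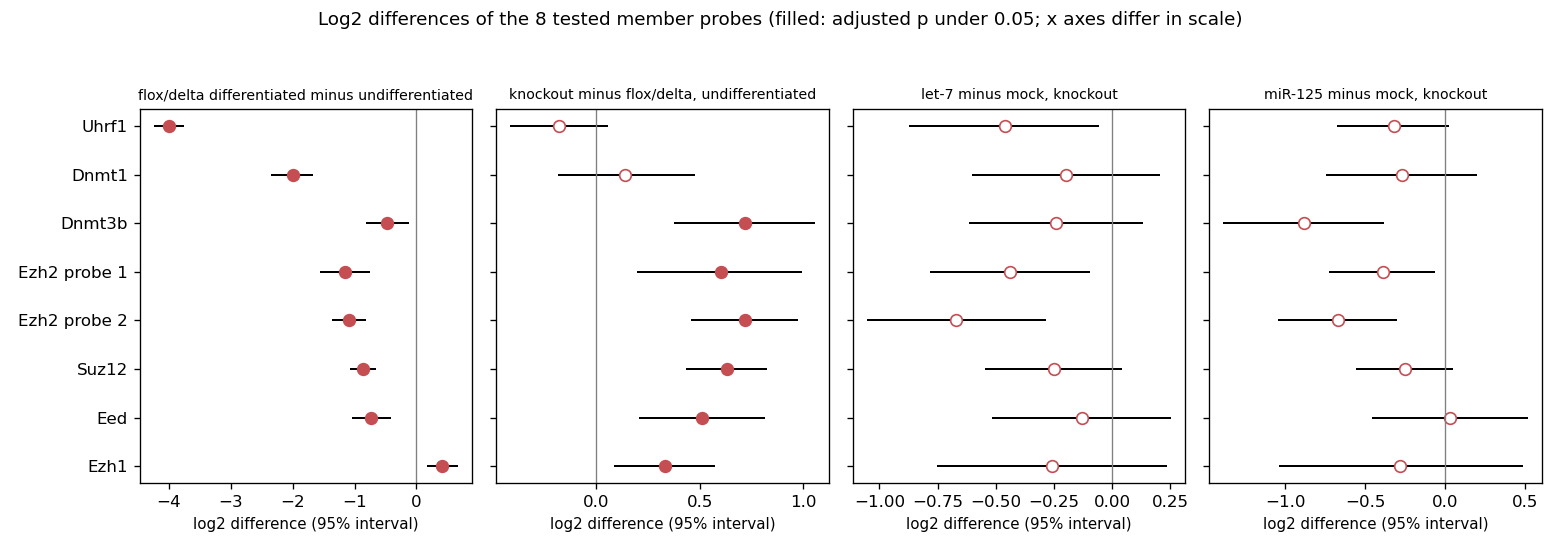
Log2 differences of the 8 tested member probes in 4 comparisons, with 95% intervals, and filled points for adjusted p under 0.05. On differentiation the values run from -4.00 for Uhrf1 to 0.42 for Ezh1, in the knockout from -0.18 to 0.72, and no point is filled for let-7 or miR-125.

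In knockout cells given let-7 or miR-125 no member passed the test against mock-treated knockout cells. The fitted difference was below 0 for 8 of the 8 member probes after let-7, against 52.1% of all 13617 probes, and for 7 of the 8 after miR-125, against 50.4%. By leading probe, the arrays did not overlap with any of the 4 mock arrays for Ezh2 and Suz12 after both and for Dnmt3b after miR-125. How many of all genes separate in this way was not counted, so this separation sets no member apart from other genes. In the let-7 comparison 5 of 13617 probes passed (0.0367%), or 3 of 9135 genes by their leading probe (0.0328%), with 2280 probes at an unadjusted p under 0.05. With the pairing of arrays from the same tamoxifen treatment as a block, 0 probes passed for let-7. In the miR-125 comparison 0 probes passed (0%), with 2526 at an unadjusted p under 0.05 by limma, and 0 also passed with the block. The comparisons with let-7 and with miR-125 share mock replicates 2 and 3.

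**Figure D4:**
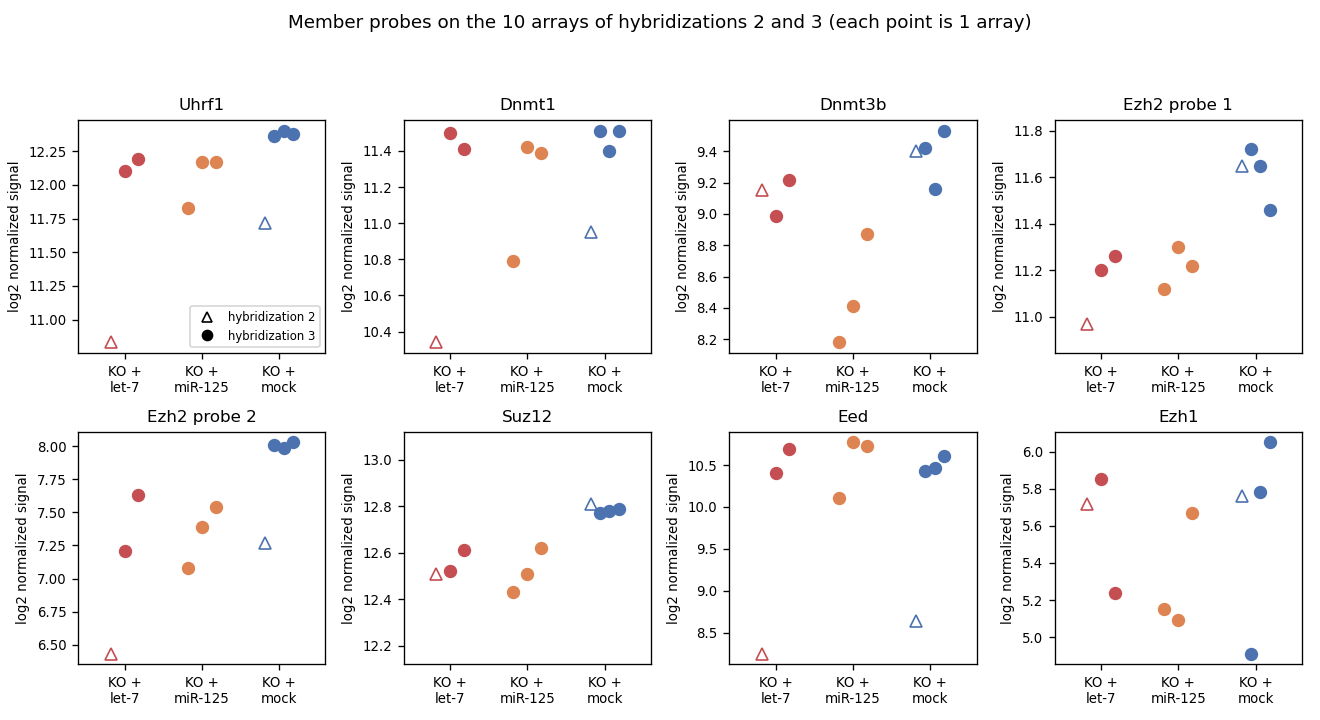
Log2 normalized signal of the 8 tested member probes on the 10 arrays of hybridizations 2 (open triangles) and 3 (filled circles), in knockout cells given let-7, miR-125 or mock. Eed stands at 8.25 and 8.64 on the 2 arrays of hybridization 2 and above 10 on all others, while Suz12 shows no such gap.

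The 2 arrays of hybridization 2 stood apart for several members before any comparison of treatments. They hold let-7 replicate 1 and a mock replicate 1, and mock replicate 1 also has an array in hybridization 3, which may carry the same RNA. Between those 2 mock arrays, hybridization 3 minus hybridization 2, the log2 difference was 1.79 for Eed, 0.74 for the second Ezh2 probe, 0.64 for Uhrf1 and 0.56 for Dnmt1. It was 0.08 for the leading Ezh2 probe, 0.02 for Dnmt3b and -0.04 for Suz12. Over all 13617 probes the median absolute difference was 0.356, and 11.3% differed by over 1. The let-7 fit therefore carried a term for the hybridization, and within-hybridization values are given below.

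Ezh2 had log2 signals of 10.97, 11.20 and 11.26 after let-7, 11.12, 11.30 and 11.22 after miR-125, and 11.65, 11.72, 11.65 and 11.46 on the mock arrays, by its leading probe. Every array with a microRNA was below every mock array. Such separation was not counted over all genes, for Ezh2 or for the members below. The log2 difference was -0.44 ± 0.14 for let-7 against mock (limma adjusted p = 0.222) and -0.39 ± 0.14 for miR-125 against mock (limma adjusted p = 0.201), with 95% intervals from -0.78 to -0.10 and from -0.72 to -0.07. Within hybridization 2 the let-7 difference was -0.68 and within hybridization 3 it was -0.32. The second Ezh2 probe had differences of -0.67 ± 0.16 for both microRNAs (limma adjusted p = 0.17 for let-7 and 0.131 for miR-125).

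Suz12 had log2 signals of 12.51, 12.52 and 12.61 after let-7, 12.43, 12.51 and 12.62 after miR-125, and 12.81, 12.77, 12.78 and 12.79 on the mock arrays. The mock arrays lay close together and above all arrays with a microRNA. The log2 difference was -0.25 ± 0.12 for each microRNA (limma adjusted p = 0.354 for let-7 and 0.329 for miR-125), and for let-7 it was -0.30 within hybridization 2 and -0.22 within hybridization 3.

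Dnmt3b had log2 signals of 9.15, 8.99 and 9.22 after let-7, 8.18, 8.41 and 8.87 after miR-125, and 9.40, 9.42, 9.16 and 9.53 on the mock arrays. The miR-125 arrays were all below the others, and the let-7 arrays overlapped with the lowest mock array. For miR-125 the log2 difference was -0.88 ± 0.21 (limma adjusted p = 0.134), a 1.84-fold lower signal with a 95% interval from -1.38 to -0.39, and 1.11% of 9135 genes had a lower value. It passed in the authors' normalized table (-0.65, adjusted p = 0.0465) and with all 10 arrays in the fit (-0.88, adjusted p = 0.0425). For let-7 the log2 difference was -0.24 ± 0.15 (limma adjusted p = 0.468).

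Uhrf1 had log2 signals of 10.83, 12.10 and 12.19 after let-7, 11.83, 12.17 and 12.17 after miR-125, and 11.72, 12.36, 12.40 and 12.38 on the mock arrays. The low values of let-7 and of mock were those of hybridization 2, and within hybridization 3 all arrays with a microRNA lay below the mock arrays. Fitted log2 differences were -0.46 ± 0.17 for let-7 (limma adjusted p = 0.255; -0.88 within hybridization 2 and -0.25 within hybridization 3) and -0.32 ± 0.14 for miR-125 (limma adjusted p = 0.294).

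Dnmt1 had log2 signals of 10.34, 11.50 and 11.41 after let-7, 10.79, 11.42 and 11.39 after miR-125, and 10.95, 11.51, 11.40 and 11.51 on the mock arrays. Replicate 1 of either microRNA was low and the other arrays overlapped with mock. Fitted differences were -0.20 ± 0.17 for let-7 and -0.27 ± 0.20 for miR-125 (limma adjusted p = 0.566 and 0.501). Eed had 8.25, 10.40 and 10.69 after let-7, 10.11, 10.77 and 10.73 after miR-125, and 8.64, 10.43, 10.47 and 10.61 on the mock arrays. The log2 difference of Eed was -0.13 ± 0.16 for let-7 and 0.03 ± 0.20 for miR-125 (limma adjusted p = 0.712 and 0.964), and the groups overlapped.

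Ezh1 stayed near background, at log2 signals of 5.72, 5.85 and 5.24 after let-7, 5.15, 5.09 and 5.67 after miR-125, and 5.76, 4.91, 5.78 and 6.05 on the mock arrays. The groups overlapped widely. Fitted log2 differences were -0.26 ± 0.20 for let-7 and -0.28 ± 0.32 for miR-125 (limma adjusted p = 0.544 and 0.695).

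**Figure D5:**
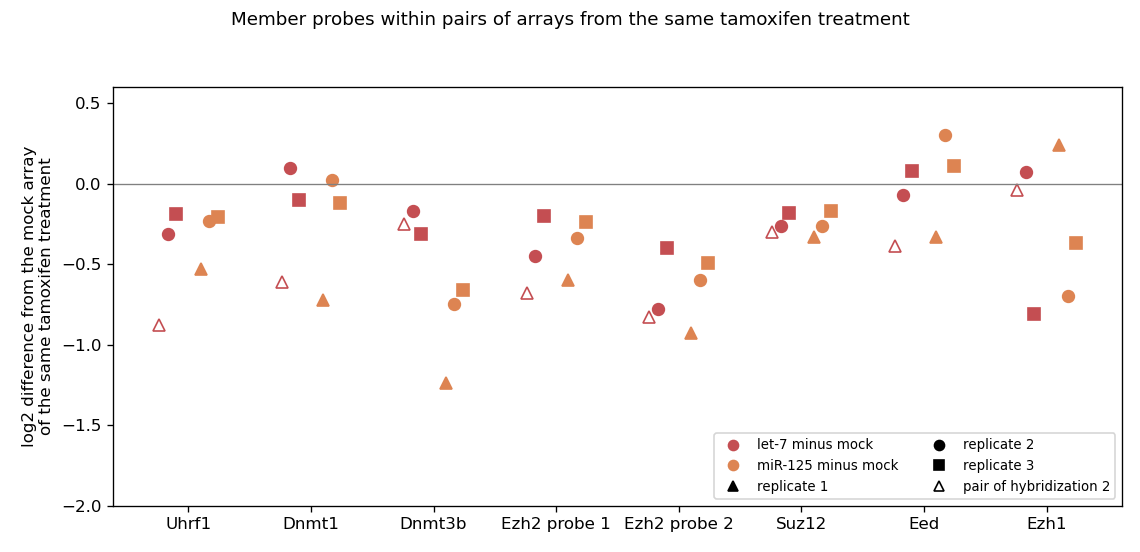
Log2 differences of each let-7 and miR-125 array from the mock array of the same tamoxifen treatment, with the marker giving the replicate and the open triangle the pair of hybridization 2. Ezh2 (both probes), Suz12, Dnmt3b and Uhrf1 are below 0 in all 3 pairs of either microRNA, and the Dnmt3b pairs of miR-125 lie at -1.24, -0.75 and -0.66.

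Differences from mock were also taken within each tamoxifen treatment. Against the mock array of its own treatment, the leading Ezh2 probe had log2 differences of -0.68, -0.45 and -0.20 for let-7 and of -0.60, -0.34 and -0.24 for miR-125. Suz12 had -0.30, -0.26 and -0.18 for let-7 and -0.33, -0.26 and -0.17 for miR-125. Dnmt3b had -0.25, -0.17 and -0.31 for let-7 and -1.24, -0.75 and -0.66 for miR-125. For these 3 genes and for Uhrf1 all 3 pairs of each microRNA were negative, whereas Dnmt1 had 2 of 3 negative for each and Eed 2 of 3 for let-7 and 1 of 3 for miR-125. Over all 13617 probes, 25.1% were lower in all 3 pairs of let-7 and 26.6% in all 3 pairs of miR-125, and 11.5% in both, with mock replicates 2 and 3 serving both microRNAs. With the treatment as a block in the fit, no member was called for either microRNA.

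The lists gave 1 call in these comparisons. Cdkn2b, the Ink4 gene, was higher by 1.94 ± 0.14 log2 units after let-7 (limma adjusted p = 0.0303), and by 1.51 ± 0.25 after miR-125, which did not pass (limma adjusted p = 0.12). The let-7 call was lost with the pairing as a block, without the hybridization term, in hybridization 3 alone and when any 1 of its let-7 or mock arrays was left out, since no probe passed then. No tested gene of the replication, PRC1, PRC2 partner, eraser or DNA methylation lists passed for either microRNA. The summed linear signal of 15 replication genes was 28800 to 39400 after let-7, 25700 to 37000 after miR-125 and 44000 to 47600 on the mock arrays, so the arrays with a microRNA were lower. No tested cell type marker passed for either microRNA. The summed signal of 5 oligodendrocyte markers was 16900 to 19800 after let-7, 21900 to 26600 after miR-125 and 16500 to 19900 on the mock arrays, and the miR-125 arrays were above the others. A linear sum follows its brightest genes, and the median log2 difference of these 5 markers for miR-125 against mock was 0.03. The summed signal of 2 mesenchymal markers was 203 to 1590 after let-7, 4010 to 7310 after miR-125 and 856 to 3030 on the mock arrays, again highest on the miR-125 arrays. Sums of 8 astrocyte markers (25400 to 36600 after let-7, 24000 to 32700 after miR-125 and 25400 to 36700 on mock) and of 7 neuron markers (9840 to 13600 after let-7, 12300 to 13300 after miR-125 and 10500 to 14100 on mock) overlapped. What part these sums have in the members' values was not tested.

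Let-7 and miR-125 were also compared directly on the 10 arrays, where 82 of 13617 probes (0.602%), or 60 of 9135 genes by their leading probe (0.657%), passed. With the pairing of tamoxifen treatments as a block 562 probes passed, and no member did in either fit. Dnmt3b had a log2 difference, let-7 minus miR-125, of 0.62 ± 0.20 (limma adjusted p = 0.159; 95% interval from 0.18 to 1.07), and its arrays did not overlap. The other 6 genes differed by -0.06 to 0.24. For Suz12 the 95% interval ran from -0.24 to 0.28 and for the leading Ezh2 probe from -0.34 to 0.27.

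The members were also ranked by how alike their 4 log2 differences were (differentiation, knockout, let-7, miR-125), as the root mean square distance over these 4 values among 8512 genes. Within the family Eed and Suz12 were 0.18 log2 units apart, Ezh2 and Suz12 0.19, and Ezh2 and Eed 0.34, while the catalytic alternatives Ezh2 and Ezh1 were 0.81 apart and the partners Dnmt1 and Uhrf1 1.02. Every member lay nearer to genes outside the family than to any other member. Uhrf1 lay nearest to Mcm10 (0.12), Rad54b (0.14) and Spc25 (0.16), and Dnmt1 to Kpna2 (0.08), Haus8 (0.10) and Map2k6 (0.11). Ezh2 lay nearest to Akna (0.07), Dusp10 (0.07) and Dtl (0.11), and Suz12 to Pdzd3 (0.05), Xrcc1 (0.06) and Nup88 (0.07). Eed lay nearest to Cse1l (0.03), Jpt1 (0.05) and Nudcd3 (0.06), Dnmt3b to Prox1 (0.13), Gle1 (0.15) and H6pd (0.15), and Ezh1 to Wasl (0.03), Tjp1 (0.04) and Atp6v1b2 (0.06). The comparisons share control arrays in pairs, so these distances describe the arrays and carry no test.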

How the data were processed

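Per the file headers, the deposited non-normalized table gives each probe's signal intensity on every array, with a detection p-value. The authors also deposited normalized tables, 2 on the intensity scale and 2 on the log2 scale, and the submitters' processing notes name limma. Arrays were background corrected and quantile normalized here with neqc (offset 16, limma 3.58.1, R 4.3.3). Those of hybridization 1 formed 1 set, and those of hybridizations 2 and 3 were normalized together as another. The 24 sample entries cover 19 arrays, and groups came from the labels. Probes were tested with lmFit and eBayes two-sidedly, and p-values were adjusted by Benjamini-Hochberg across the kept probes of a comparison (threshold 0.05). The let-7 fit and the direct contrast carried a hybridization term. Probe symbols came from the platform annotation: 23978 probes had 1 symbol and 1719 had none. Named genes were all member probes, up to 3 passing rises and falls of each list, and the 3 nearest genes by distance. The members and lists were chosen with earlier results of these data known. Replicate numbers paired the let-7 and miR-125 arrays with mock, since the labels tie them to tamoxifen treatments. Same-numbered arrays deviated together (r 0.61 to 0.86 and 0.30 to 0.49). Let-7 and mock replicate 1 both lay in hybridization 2, so their r of 0.86 cannot tell pairing from hybridization. Within hybridization 3 same-numbered let-7 and mock arrays had r of 0.61, against 0.35 and 0.36 for unlike numbers. The arrays of hybridization 1 were not paired (r -0.07 to 0.24). The deposited normalized tables number replicates 1 and 3 of undifferentiated flox/delta and knockout cells the other way round. Replicate numbers here are those of the non-normalized table, and with the other numbering the differentiation pairs had r of 0.09 to 0.17. On simulated data the fit recovered 98% of probes changed by 1 log2 unit on differentiation (13280 probes), 28% for let-7 and 32% for miR-125 (13617 probes each). The number of arrays limits the precision. Alternatives were another scaling, offset, filter, probe rule, the deposited normalized tables, blocks, and single arrays left out.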

Additional observations from a re-analysis of the deposited data

Results flagged for a closer look

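Mock replicate 1 of hybridization 2 lay far below the other 3 mock arrays for 3 of the 8 tested member probes, by a gap test for groups of 4. Eed had a log2 signal of 8.64 there, against 10.43 to 10.61 on the others. Uhrf1 had 11.72, against 12.36 to 12.40, and the second Ezh2 probe had 7.27, against 7.99 to 8.03. Such a test marks about 1 in 20 groups by chance, and the other 3 arrays belong to hybridization 3. The additional Ezh1 probe, which entered no test, was above background on 2 of 3 differentiated flox/delta arrays and on 0 of 3 undifferentiated flox/delta arrays.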

How the results depend on the processing

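Calls for Uhrf1, Dnmt1, Ezh2, Suz12 and Eed on differentiation, and for Suz12, Eed and Dnmt3b in the knockout, held under every alternative run. No member was called higher on differentiation with median scaling, with offset 50 or in the authors' normalized table (0 in place of 1, Ezh1), and leaving out single arrays gave 3 to 5 members called higher in the knockout. Replicate blocks, with either numbering of hybridization 1 (the second chosen after seeing the data), changed no member call.

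For let-7 the 5 probes became 23 with offset 50, 2 with 1 probe per gene, 351 in the authors' table, 19 with all 10 arrays, and 0 with the replicate block, without the hybridization term, in hybridization 3 alone or without any 1 array. For miR-125 the 0 probes became 3 with offset 50, 350 in the authors' table and 404 with all 10 arrays. In the last 2 settings 1 member, Dnmt3b, was called lower. For let-7 against miR-125 the 82 probes became 204 with offset 50, 24 with no filter, 187 with probes detected on all arrays of a group, 0 with only these groups fitted, 0 in hybridization 3 alone, 562 with the replicate block and 0 to 77 without a single array (0 without mock replicate 1 of hybridization 2, 25 without that of hybridization 3). The cause was not tested.

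Signs turned only for values that passed no test. Without single arrays, Ezh1 between differentiated flox/delta and knockout cells ran from -0.01 to 0.17 and Eed for miR-125 from -0.09 to 0.24, and Eed was -0.02 with all 10 arrays. In the direct contrast Suz12 was -0.06 with median scaling. With only these groups fitted, or in hybridization 3 alone, Uhrf1 was 0.09, Ezh2 0.02 and Eed 0.01. Without single arrays the direct contrast ran from -0.14 to 0.09 for Uhrf1, -0.09 to 0.02 for Ezh2, -0.28 to 0.05 for Eed, -0.02 to 0.07 for Suz12 and -0.05 to 0.26 for Dnmt1. In simulated data (13617 probes), 0% of probes changed by 0.5 log2 units were called for let-7 and for miR-125 against mock, and 3% in the direct contrast.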
